A study of Mus musculus with 4 samples.

Results

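Hoxa5, Hoxa7, Hoxa9 and Hoxa10 of the Hoxa cluster and the cofactor gene Meis1 were followed from a mouse lymphoid progenitor into T lineage cells made by 2 routes. The genes were chosen by symbol. Each of the 5 had 1 probe set that named no other gene, and together they are 5 of the 19938 genes tested. All samples came from bone marrow of C57BL/6 mice. The first group, called Tcf1 cells here, grew from lymphoid-primed multipotent progenitors (LMPPs) given a Tcf1-VEX retrovirus. Tcf1 is a T lineage transcription factor and VEX is the vector's sort marker. They grew on plain OP9 stroma, a mouse marrow line that presents no Notch ligand, and were sorted on day 10 as live CD45.2+ Mac1- Gr1- Thy1+ CD25+ cells (2 arrays, labelled biological replicates). The second group, control cells, grew from LMPPs given the empty VEX vector on OP9 that presents the Notch ligand DL4, and was sorted by the same gate on the same day (1 array). The third, the LMPP input, was a pool of wild-type progenitors sorted as lineage marker-negative, Sca+, kit+ and high for Flt3, then held for 48 hours in the medium used for transduction (1 array). The labels mention no virus for this input. Vector and stroma thus changed together between the first and second group, and each of these groups was set apart from LMPPs by culture time, cytokines, stroma, the gate used and, going by the labels, virus. The effects of these cannot be told apart.

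Hox genes encode homeodomain transcription factors that lie in 4 clusters and are read in part according to their place in the cluster. In blood-forming cells Hoxa5 to Hoxa10 are most active in stem cells and early progenitors and are turned down as cells mature, including in the thymus. Hox proteins bind DNA weakly on their own and do so with partners of the TALE homeodomain class, the Meis and Pbx proteins. Hoxa9 with Meis1 is the best known such pair, because forced expression of both transforms mouse marrow progenitors into acute myeloid leukaemia.

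The sequences in front of the genes with the largest differences, Hoxa9 and Meis1, are shown because these probe sets had nearly the same pattern over the arrays. That in front of an inner start of Hoxa10 is added because it held the letters of the factor that was transduced. RefSeq promoters (GRCm38.p6) matched all 5 genes. The 250 bases before each listed start were searched on both strands for CTTTGA and CTTTGT, cores bound by Tcf1 and its relatives, TGGGAA, a core bound by the Notch effector RBPJ, TGACAG, bound by Meis proteins, and TGATTNAT, bound by Pbx and Hox pairs. No motif found in these windows overlapped another. Capitals mark the matches.
Hoxa9, chr6:52227371-52227620, minus strand: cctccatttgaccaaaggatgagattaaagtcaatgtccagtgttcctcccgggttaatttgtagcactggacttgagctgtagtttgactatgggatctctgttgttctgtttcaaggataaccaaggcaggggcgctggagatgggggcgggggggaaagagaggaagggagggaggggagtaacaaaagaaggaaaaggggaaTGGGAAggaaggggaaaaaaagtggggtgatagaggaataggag
Meis1, chr11:19018970-19019219, minus strand: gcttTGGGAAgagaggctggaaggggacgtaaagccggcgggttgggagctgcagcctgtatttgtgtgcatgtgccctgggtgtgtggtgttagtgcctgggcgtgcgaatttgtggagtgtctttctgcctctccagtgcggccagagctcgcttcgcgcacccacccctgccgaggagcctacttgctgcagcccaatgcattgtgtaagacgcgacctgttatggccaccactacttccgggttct
Hoxa10, inner start, chr6:52234940-52235189, minus strand: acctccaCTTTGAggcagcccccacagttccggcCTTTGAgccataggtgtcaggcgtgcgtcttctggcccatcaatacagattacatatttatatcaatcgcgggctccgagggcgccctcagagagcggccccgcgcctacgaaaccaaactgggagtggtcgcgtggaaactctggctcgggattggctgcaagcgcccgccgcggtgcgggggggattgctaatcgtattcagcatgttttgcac

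TGGGAA stood once in the Hoxa9 window, 44 to 39 bases before the start, and once in the Meis1 window, 246 to 241 bases before it, on the gene's own strand in both. It occurs in 21.6% of the 32851 promoter windows of this length. CTTTGA stood at 2 places before the inner start of Hoxa10, against 13.8% of all windows with at least 1. None of the letters searched was found before the Hoxa5 and Hoxa7 starts or the outer Hoxa10 start. The other 3 motifs were found in none of these windows. Of all windows, 16.5% held CTTTGT, 15.9% held the Meis motif and 2.82% held the motif of Pbx and Hox pairs. The windows also differed in base content. The Hoxa5 window was 63.6% G and C with 28 CG pairs, and the Hoxa9 window 49.6% with 3, against medians of 52.4% and 6 over all windows. These matches describe the letters and show neither binding nor a cause.

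Log2 signals of the 4 arrays had medians between 7.47 and 7.59 over the genes tested. The Tcf1 replicates differed by a median of 0.15 per gene, and a 2-fold gap between them was seen for 65 genes (0.326%). Tcf7, which encodes Tcf1, was not analysed here, so the transduced gene gives no check of the labels. The sort markers fitted the labels: Thy1 and Il2ra, which encodes CD25, were 12.38 to 12.53 and 12.91 to 12.99 in Tcf1 cells and 12.98 and 13.64 in control cells, against 8.13 and 6.88 in LMPPs. Flt3, the receptor by which LMPPs were sorted, read 10.97 and 11.03 in Tcf1 cells, 6.75 in control cells and 11.91 in LMPPs. Expression was compared with limma across all genes, and a gene passed at a Benjamini-Hochberg adjusted p under 0.05. The only replicated group was Tcf1, so the test had 1 residual degree of freedom, with the spread of a lone array assumed equal to that of the Tcf1 pair. In simulated data of this design, described below, the share of false calls was above 0.05 in most draws. Counts of genes that passed may therefore hold more false calls than the threshold implies.

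Across the 5 genes the arrays stood in the same order: both Tcf1 arrays highest, LMPPs next and control cells lowest. Of all genes tested, 10.1% had this order. Hoxa9 was 11.3-fold and Meis1 9.76-fold higher in Tcf1 cells than in control cells, and Hoxa5, Hoxa7 and Hoxa10 were between 2.14-fold and 3.50-fold higher. Relative to LMPPs the 5 genes read 1.41-fold to 1.58-fold higher in Tcf1 cells, which did not pass the test. In bulk samples, fewer cells that express a gene and less RNA of it per cell cannot be told apart.

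**Figure D1:**
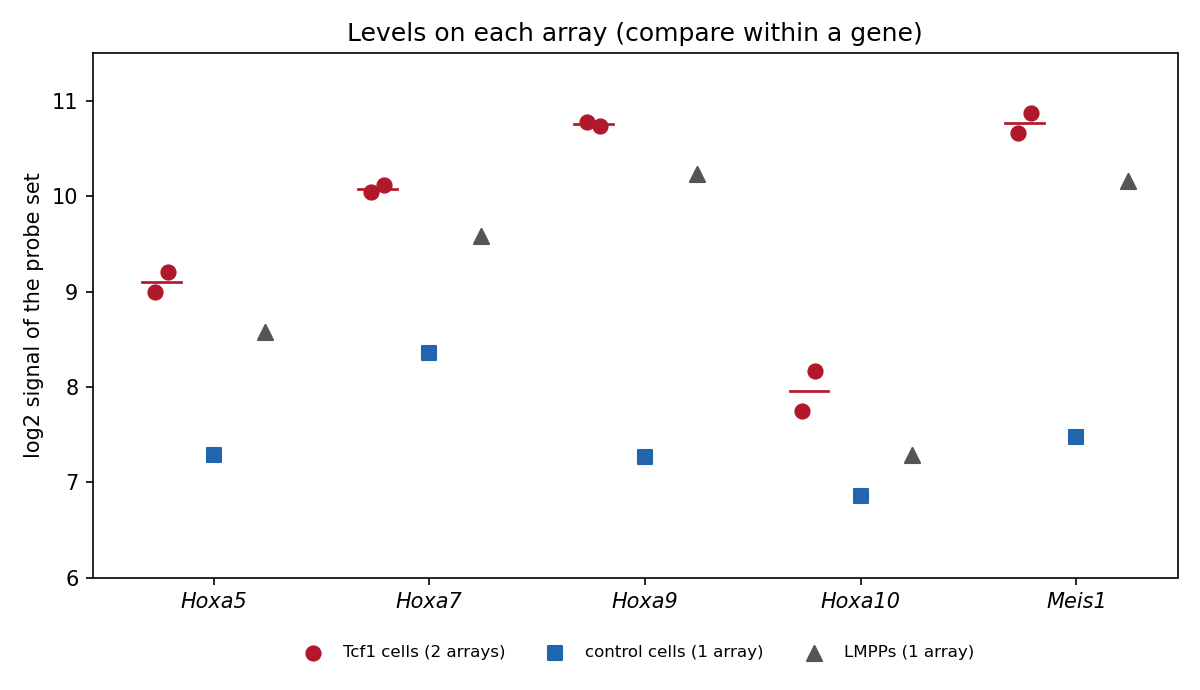
Log2 signal of the probe set of Hoxa5, Hoxa7, Hoxa9, Hoxa10 and Meis1 on each array: Tcf1 cells (2 circles, line at their mean), control cells (square) and LMPPs (triangle). In each gene both circles lie above the triangle and the square lies lowest; levels of different genes are not comparable, since probe sets differ.

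Tcf1 cells were first compared with control cells, to ask whether T lineage cells obtained with Tcf1 and those obtained with a Notch ligand differed in these progenitor factors. All 5 genes passed and were higher in Tcf1 cells, while of all genes 4.38% passed, 1.90% as higher and 2.49% as lower. Hoxa9, which supports early lymphoid and myeloid progenitors in mice, had log2 signals of 10.78 and 10.74 in Tcf1 cells against 7.27 in control cells. This is a difference of 3.49 (SE 0.16, 95% interval 3.11 to 3.87, adjusted p = 0.000219, limma), or 11.3-fold. The Tcf1 arrays lay close together (SD 0.03, n = 2) and well clear of the control array. Meis1, which holds Hox and Pbx proteins on DNA and is needed for blood stem cells in mice, had 10.66 and 10.87 in Tcf1 cells against 7.48 in control cells. It differed by 3.29 (SE 0.17, 95% interval 2.87 to 3.70, adjusted p = 0.000324, limma), or 9.76-fold. Among all genes, Hoxa9 had the 23rd and Meis1 the 28th largest difference in this direction.

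Hoxa5, Hoxa7 and Hoxa10 differed by less. Hoxa5, which in human marrow favours myeloid over red cell formation, read 8.99 and 9.20 in Tcf1 cells against 7.29 in control cells, a difference of 1.81 (SE 0.17, adjusted p = 0.00271, limma). Hoxa7, a cluster gene often active in leukaemias with MLL fusions, read 10.04 and 10.12 in Tcf1 cells against 8.36 in control cells, a difference of 1.72 (SE 0.16, adjusted p = 0.00242, limma). The Tcf1 pair was tight for Hoxa7. For either gene both Tcf1 arrays lay above the control array, as they did for 38.6% of all genes. Hoxa10, whose forced expression expands progenitors in mice, read 7.74 and 8.16 in Tcf1 cells against 6.86 in control cells. Its difference was the smallest, 1.10 (SE 0.21, 95% interval 0.59 to 1.60, adjusted p = 0.0373, limma), and its Tcf1 replicates were the furthest apart of the 5 genes (SD 0.30, n = 2). Its adjusted p lies near the threshold, where calls of this design are uncertain. With Tcf1 replicate 1 alone the Hoxa10 difference was 0.89 and with replicate 2 alone 1.31. The 95% intervals of Hoxa9 and Meis1 lay above those of the other 3 genes. The 5 calls did not hold in 1 setting: fitted over all 35399 probe sets, with and without gene names, which changes both the spread estimate and the number of tests, the same differences gave adjusted p between 0.127 and 0.324 (limma), and no probe set at all passed there, while 3702 had an unadjusted p under 0.05.

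**Figure D2:**
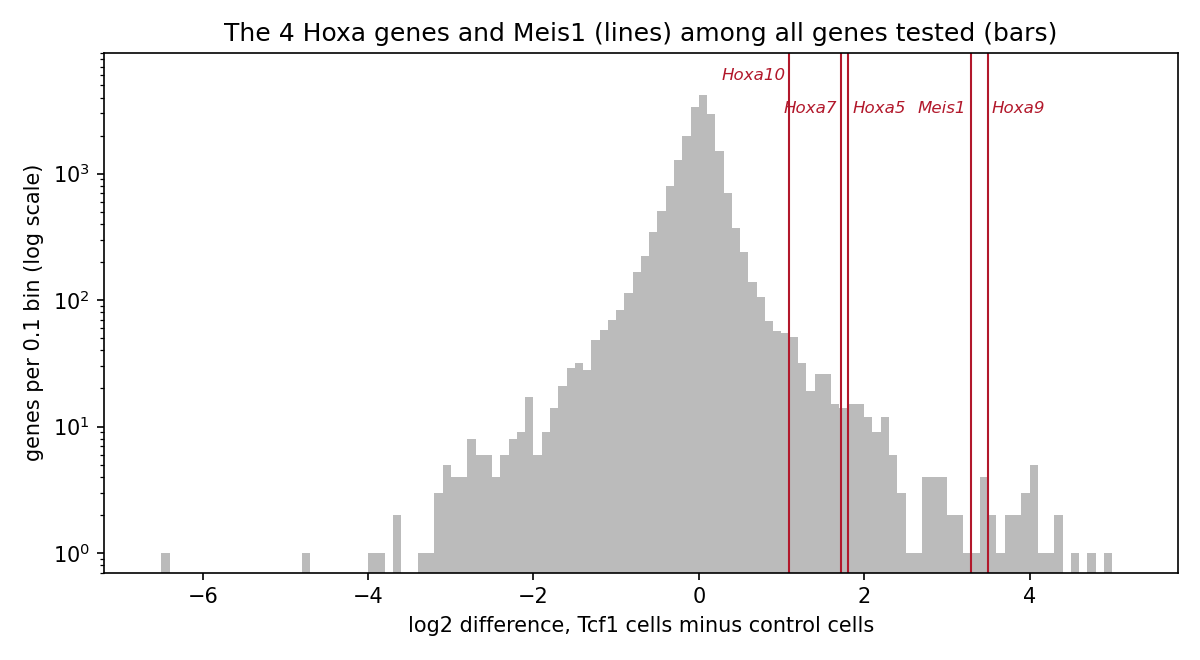
Distribution of the log2 difference between Tcf1 cells and control cells over all 19938 genes tested (grey bars, counts on a log axis), with the 4 Hoxa genes and Meis1 as red lines. Hoxa9 at 3.49 and Meis1 at 3.29 lie in the thin upper tail, Hoxa5, Hoxa7 and Hoxa10 between 1.10 and 1.81.

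Tcf1 cells were next compared with LMPPs, to ask how the cells grown with Tcf1 stood against the progenitors they came from. None of the 5 genes passed, while of all genes 3.06% passed, 1.75% as higher and 1.31% as lower. In all, 349 genes passed as higher and 261 as lower, or 607 and 849 when each array was centred on its median. Each of the 5 genes nevertheless read higher on both Tcf1 arrays than on the LMPP array, as 35.8% of all genes did, and had an unadjusted p under 0.05, as 5.33% of all genes did in this direction. Meis1 had 10.66 and 10.87 in Tcf1 cells against 10.16 in LMPPs, a difference of 0.60 (SE 0.17, 95% interval 0.19 to 1.01, adjusted p = 0.156, limma). Hoxa10 had 7.74 and 8.16 in Tcf1 cells against 7.29 in LMPPs, a difference of 0.66 (SE 0.21, 95% interval 0.16 to 1.17, adjusted p = 0.199, limma). For Hoxa9 the LMPP array read 10.23, 0.53 below the Tcf1 mean (95% interval 0.15 to 0.91, adjusted p = 0.172, limma). The differences of Hoxa5 and Hoxa7, whose LMPP signals were 8.57 and 9.58, were 0.53 (95% interval 0.11 to 0.94) and 0.50 (95% interval 0.11 to 0.88), with adjusted p of 0.214 and 0.205 (limma). The 5 differences thus lay between 0.50 and 0.66, a narrower range than against control cells. The median over all genes was 0.00.

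The third comparison set the control array beside the LMPP array, without replicates and so without a test. All 5 genes read lower in control cells, as 52.7% of all genes did, and 4 of the 5 were at least 2-fold lower. Of all genes 5.53% were at least 2-fold apart, 2.36% lower and 3.17% higher. Hoxa9 differed by -2.96 on the log2 scale (7.27 in control cells, 10.23 in LMPPs), or 7.79-fold lower in control cells. Meis1 differed by -2.69 (7.48 and 10.16), or 6.44-fold lower. These were the 33rd and 45th lowest differences of all genes. Hoxa5 differed by -1.28 and Hoxa7 by -1.22, 2.43-fold and 2.33-fold lower in control cells. Hoxa10, at 6.86 in control cells and 7.29 in LMPPs, differed by -0.43, or 1.35-fold. On the control array Hoxa9 and Meis1 stood at percentiles 46.5 and 49.8 of all genes, against 86.9 and 86.1 on the LMPP array. Without detection calls it cannot be said whether these control signals exceed background, so the folds may understate the differences. The 3 comparisons share arrays and are not independent of each other.

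By their pattern over the arrays the 5 genes formed 2 close pairs. Each gene was centred on its own mean, and likeness was measured as the Euclidean distance over the 4 arrays. Hoxa5 and Hoxa7 were 0.12 apart and Hoxa9 and Meis1 0.27, while the other 8 of the 10 pairs were between 0.65 and 2.14 apart. Hoxa9 and Meis1 lie on different chromosomes, 6 and 11. Among the 9620 other genes at or above the median level that were not predicted or clone-named, Meis1 was the nearest to Hoxa9, and Hoxa9 the nearest to Meis1. The next were Csf2rb, the shared beta chain of the IL3, IL5 and GM-CSF receptors (0.48 from Hoxa9, 0.28 from Meis1), and Sirpa, a myeloid inhibitory receptor (0.50 and 0.29). Cfp, which encodes the complement factor properdin (0.52 and 0.41), also stood among the nearest 5 of both. Igsf6 was near Hoxa9 (0.51), and Csf2rb2, a close copy of Csf2rb with which it may share signal, was near Meis1 (0.36). Csf2rb read 11.03 and 11.25 in Tcf1 cells, 8.18 in control cells and 10.75 in LMPPs, the same order as the 5 genes. With 4 arrays this likeness is a description and says nothing of shared control.

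The neighbours of these genes in the Hoxa cluster were compared to see which of them differed likewise. Of 9 other cluster entries with a probe set, 2 passed as higher in Tcf1 cells than in control cells (1.90% of all genes) and 7 did not pass. Counting those that passed, 4 of the 9 had an unadjusted p under 0.05 (limma), as did 2809 of all 19938 genes (2900 against LMPPs). The median difference of the 9 was 0.18, against 0.02 for all genes. Hoxa6, between Hoxa5 and Hoxa7, had 8.87 and 9.05 in Tcf1 cells and 6.75 in control cells, with 8.43 in LMPPs. It was higher by 2.21 in Tcf1 cells than in control cells (SE 0.17, adjusted p = 0.00103, limma). Hoxa3 was higher by 1.12 (adjusted p = 0.0137, limma). Hoxa2 (0.57) and Hoxa4 (0.52) did not pass, nor did Hoxa11 (0.06) and Hoxa13 (-0.08), the genes of limb and posterior patterning at the 5′ end. The homeobox gene Evx1 beyond them differed by 0.03. Counting all 10 Hoxa protein-coding genes with a probe set, 6 passed, and 8 had the order of Tcf1 cells above LMPPs above control cells. Against LMPPs none of the 9 other cluster entries passed (limma, 2 at an unadjusted p under 0.05), and their differences lay between -0.10 and 0.55, Hoxa3 (0.55) and Hoxa6 (0.53) being the largest. The genes that passed against control cells thus ran from Hoxa3 to Hoxa10, with Hoxa4 among them not passing. Neighbouring Hox probe sets have related homeobox sequence, and sharing of signal between them was not tested.

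Mir196b, a microRNA gene between Hoxa9 and Hoxa10 that was chosen after its values were seen, had the same order. Its probe set read 7.88 and 7.90 in Tcf1 cells, 6.44 in control cells and 7.47 in LMPPs. The difference from control cells was 1.45 (SE 0.16, adjusted p = 0.00459, limma) and that from LMPPs 0.42 (adjusted p = 0.284, limma). The mature sequence is shown with its seed, bases 2 to 8, in capitals, since miR-196 is known to target Hox transcripts. Whether the probe set measured the mature form or the longer transcript around it cannot be told from these values.
mmu-miR-196b-5p (RefSeq, GRCm38.p6, chr6:52230129-52230150, minus strand): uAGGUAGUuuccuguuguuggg

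Outside the cluster, 6 flanking genes were measured. Skap2, an adaptor of Src family kinases, had 9.83 and 10.04 in Tcf1 cells against 8.39 in control cells and passed with a difference of 1.54 (SE 0.17, adjusted p = 0.00481, limma). Its LMPP signal was 10.26, above both Tcf1 arrays, unlike the 5 genes. Of the other flanking genes, Creb5 passed as higher in Tcf1 cells than in LMPPs (0.93, adjusted p = 0.0331, limma), and Snx10, Hibadh, Tax1bp1 and Jazf1 passed in neither comparison. None of 4 measured genes near Meis1 passed in either comparison (limma, 1 at an unadjusted p under 0.05 in each), with Etaa1 (-0.54) and Cep68 (-0.25) furthest from 0 against LMPPs, and Rab1a (0.46) and Etaa1 (-0.23) against control cells.

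**Figure D3:**
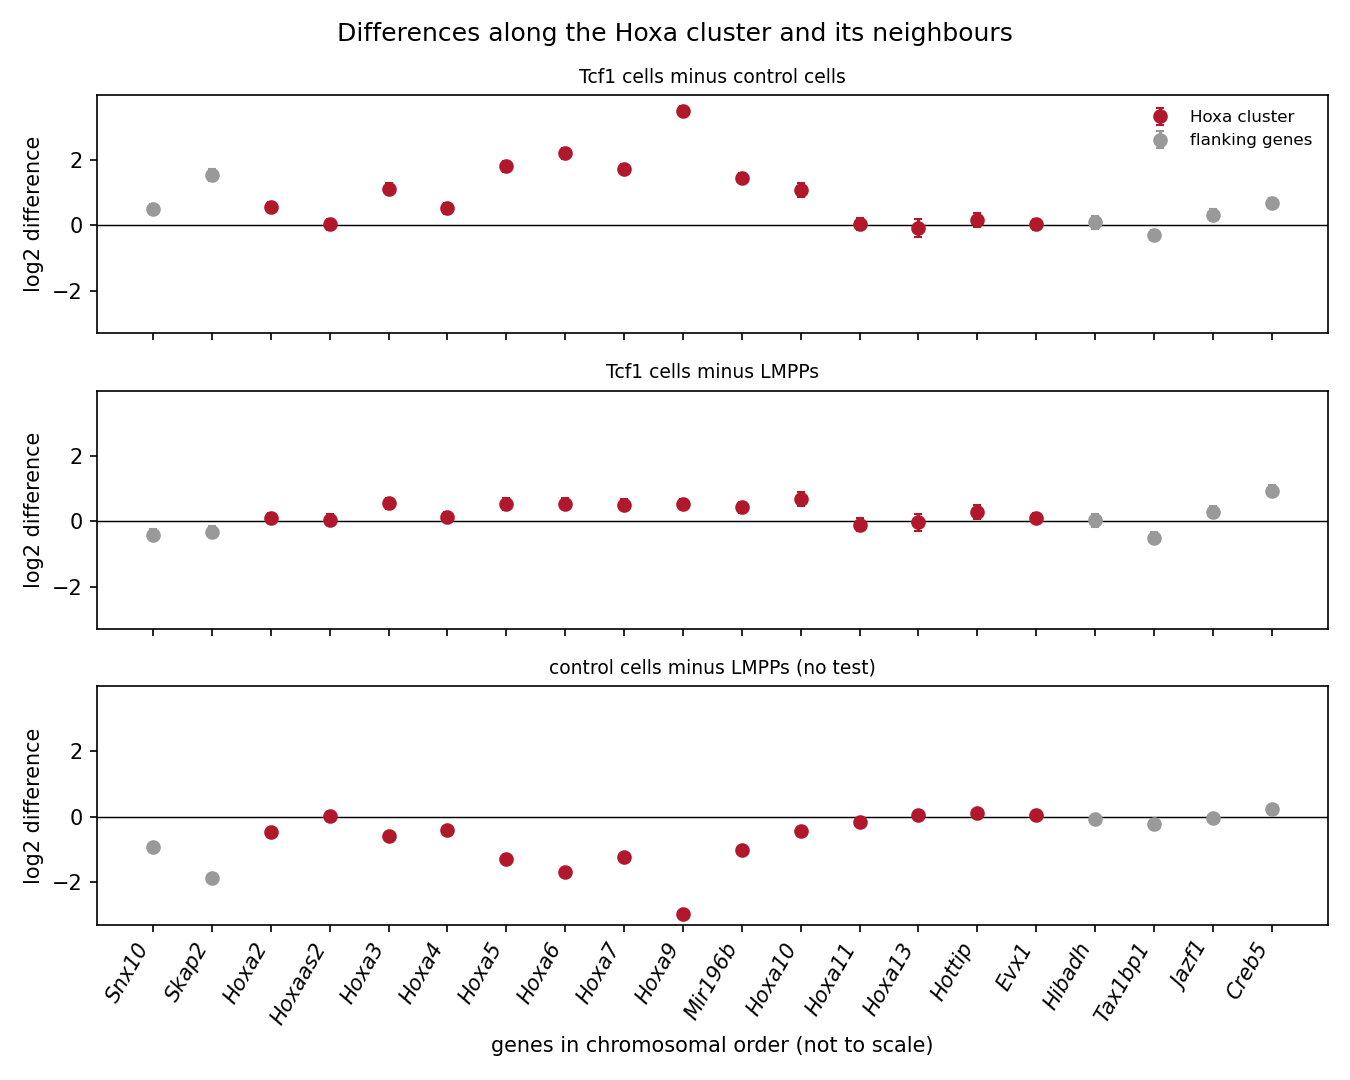
Log2 differences (points, with the standard error of limma where there was a test) of the genes along the Hoxa cluster in red and flanking genes in grey, in chromosomal order and not to scale. From top to bottom the panels show Tcf1 cells minus control cells, with a peak of 3.49 at Hoxa9, Tcf1 cells minus LMPPs, within -0.50 and 0.93, and control cells minus LMPPs, 1 array each, with the lowest value of -2.96 at Hoxa9.

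The other Hox clusters did not show this pattern. Of 27 measured Hoxb, Hoxc and Hoxd genes, none passed in either comparison (limma, 0 at an unadjusted p under 0.05 in both). Their differences lay between -0.16 and 0.31 against control cells (median 0.01) and between -0.22 and 0.24 against LMPPs (median 0.08). Hoxb5 (0.31) and Hoxb13 (0.23) were furthest from 0 against control cells, and Hoxd10 (0.24) and Hoxc6 (0.23) against LMPPs. The order of Tcf1 cells above LMPPs above control cells was found in 4 of them (14.8%), near the 10.1% of all genes. Their signals were between 4.88 and 7.93 on all arrays, so that a difference near background could be missed.

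DNA-binding partners of Hox proteins, other than Meis1, passed in neither comparison. This held for 9 measured genes of the TALE class (limma, 1 at an unadjusted p under 0.05 against control cells and 0 against LMPPs). Of all 19938 genes, 2809 and 2900 had such a p. Pbx3, which forms complexes with Hoxa9 and Meis1, read 8.73 and 8.96 in Tcf1 cells, 8.40 in control cells and 8.58 in LMPPs, and differed by 0.45 from control cells (adjusted p = 0.311, limma). Pbx4 differed by -0.42 from control cells and 0.37 from LMPPs, from which Pbx3 differed by 0.26. Meis2 and Meis3 differed by 0.04 and -0.22 from control cells, against 3.29 for Meis1.

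Genes whose products keep Hoxa genes active or silent were taken next. The MLL complex and the elongation factors that work with it sustain Hoxa transcription, and Polycomb complexes oppose it. Of all 19938 genes, 2809 had an unadjusted p under 0.05 against control cells and 2900 against LMPPs (limma). None of 15 genes of the MLL group passed (limma, 6 at an unadjusted p under 0.05 against control cells and 3 against LMPPs). Their median was -0.27 against control cells, where Mllt3 (-0.69), an elongation factor, and Kmt2a (-0.61), which encodes MLL itself, were furthest from 0. Against LMPPs these were Aff1 (0.59) and Wdr5 (-0.53). Kmt2a read 10.87 and 11.05 in Tcf1 cells, 11.57 in control cells and 10.58 in LMPPs, an order unlike that of the Hoxa genes. None of 14 Polycomb genes passed either (1 at an unadjusted p under 0.05 against control cells and 0 against LMPPs), with medians of -0.21 and -0.04. Pcgf2 (-0.55) and Jarid2 (-0.44) were furthest from 0 against control cells, and Rnf2 (-0.34) and Phc1 (0.30) against LMPPs. Ezh2, the main histone methyltransferase of Polycomb, differed by -0.15 from control cells.

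**Figure D4:**
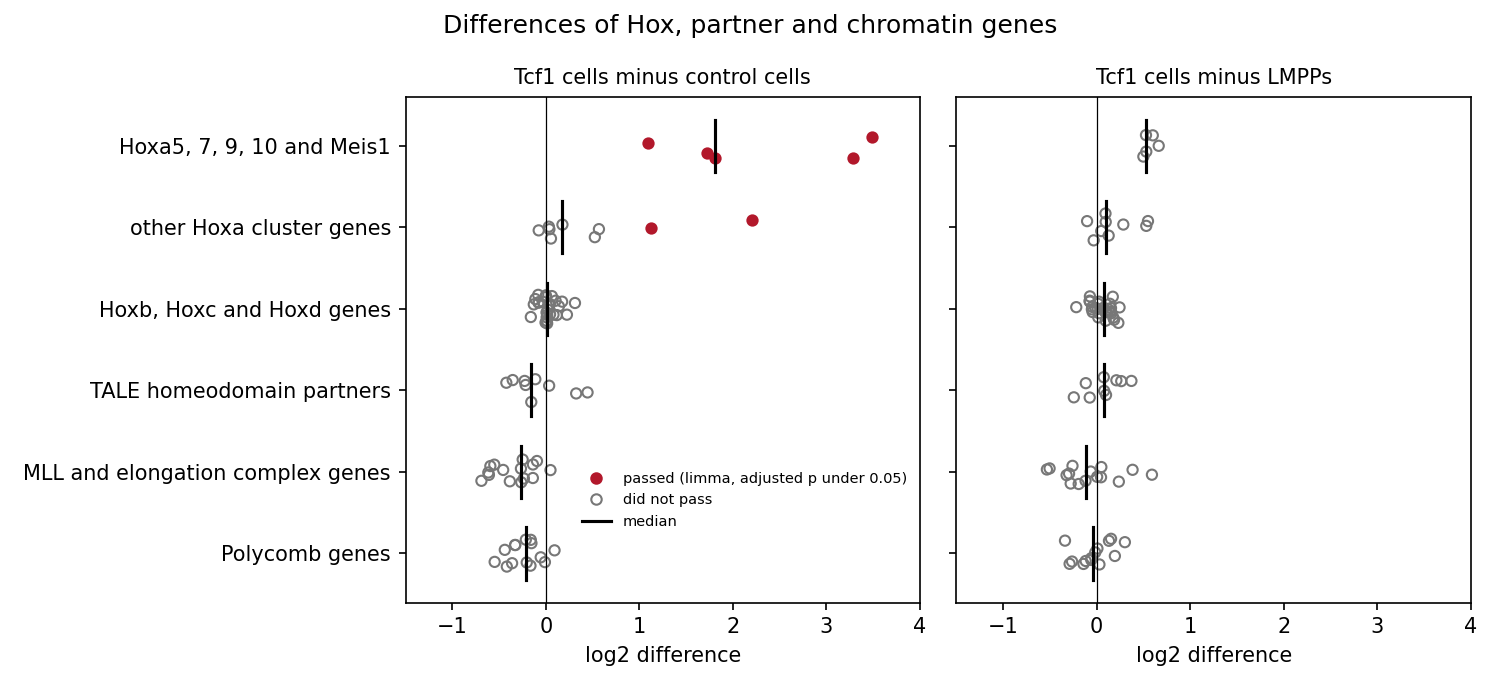
Log2 differences of each measured gene in 6 groups, Tcf1 cells minus control cells at left and Tcf1 cells minus LMPPs at right, with filled points for genes that passed and a black line at the group median. The 5 genes and Hoxa3 and Hoxa6 are filled at left, and no point is filled at right.

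Genes reported as targets of Hoxa9 and Meis1 differed in both directions. Of 14, 3 were higher in Tcf1 cells than in control cells (1.90% of all genes), 1 was lower (2.49% of all genes) and 10 did not pass, with a median of -0.10. Those higher were Flt3 (4.24, adjusted p = 0.000167, limma), Cd34, a progenitor surface antigen (3.90, adjusted p = 0.000167, limma), and Lmo2, a LIM domain factor of progenitors (1.05, adjusted p = 0.0202, limma). Trib2, a pseudokinase gene that Meis1 induces in leukaemia models, was the one that was lower, at 6.70 and 6.98 in Tcf1 cells against 7.84 in control cells (adjusted p = 0.0315, limma). Cd34 read 12.76 and 12.86 in Tcf1 cells, 8.91 in control cells and 12.67 in LMPPs. Its difference from LMPPs was 0.14, against 0.53 for Hoxa9 and 0.60 for Meis1, and none of these passed. Against LMPPs, Lmo2 fell by 2.10 and Flt3 by 0.91 (1.31% of all genes passed as lower). LMPPs were sorted as high for Flt3, so that gate favoured a lower Flt3 signal in Tcf1 cells. Camk2d, a calcium-dependent kinase, rose by 0.99 (1.75% of all genes passed as higher). Its adjusted p of 0.0499 (limma) lies near the threshold, where calls of this design are uncertain. The other 11 did not pass.

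Other progenitor transcription factors were set beside the 5 genes. Of 16, 5 fell in Tcf1 cells against LMPPs (1.31% of all genes), 11 did not pass and none rose (1.75% of all genes). An unadjusted p under 0.05 was found for 10 of them, and for 2900 of all 19938 genes (limma). The median of the 16 was -0.62, and that of the 5 genes 0.53. The difference between the groups was not tested. Runx1, a stem cell and T lineage factor, read above LMPPs by 0.82 without passing (adjusted p = 0.0501, limma). Mef2c (-1.87), a lymphoid and myeloid progenitor factor, Hlf (-1.58), a stem cell factor, Bcl11a (-1.47), a lymphoid and globin regulator, and Gfi1b (-1.35), an erythroid and megakaryocytic repressor, had the largest decreases. Against control cells 3 of the 16 were higher (1.90% of all genes), 1 was lower (2.49% of all genes) and 12 did not pass. Mef2c (2.15), Spi1, the myeloid factor PU.1 (2.01), and Bcl11a (0.95) were higher and Gfi1 was lower. Gfi1, a repressor that acts against Hoxa9 in mouse myeloid progenitors, read 8.34 and 8.36 in Tcf1 cells, 9.47 in control cells and 8.26 in LMPPs, a difference of -1.12 from control cells (adjusted p = 0.0119, limma).

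T lineage genes were measured beside the progenitor genes in the same bulk samples. Gata3 and Bcl11b, factors of T lineage commitment, read 9.95 to 10.29 and 9.40 to 9.60 in Tcf1 cells, 11.42 and 10.28 in control cells and 7.58 and 7.42 in LMPPs. Of 8 T lineage genes, 5 were higher in Tcf1 cells than in LMPPs (1.75% of all genes). Among these 5, Thy1 (4.33) and Il2ra (6.07) encode the antigens of the sort gate, so their direction was set by the gate, and Gata3 (2.54), Bcl11b (2.08) and Cd3g (0.94) do not. In Tcf1 cells 4 of the 8 (Gata3, Cd3g, Rag1 and Cd3e) were lower than in control cells (2.49% of all genes). The Tcf1 samples thus gave signals of both Gata3 and Hoxa9 above those of LMPPs, a difference that passed the test for Gata3 and did not for Hoxa9. Whether the same single cells carried both was not tested.

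Markers of other cell types were counted in the same comparisons, in which 1.90% of all genes passed as higher and 2.49% as lower in Tcf1 cells against control cells, and 1.75% and 1.31% against LMPPs. Of 14 myeloid markers, 5 were higher in Tcf1 cells than in control cells (Lyz2, Prtn3, Mpo, Csf1r and Elane) and none was lower. Their mean log2 signal was 8.36 and 8.43 in Tcf1 cells, 7.35 in control cells and 9.16 in LMPPs. Against LMPPs, 6 of the 14 fell, with Ngp (-3.73), Elane (-2.53) and Ctsg (-1.20) the largest decreases, and Lyz2 rose (2.14). The gate left out cells with Mac1 or Gr1 on the surface, and Itgam, which encodes Mac1, read 7.44 and 7.70 in Tcf1 cells, 7.03 in control cells and 8.25 in LMPPs and passed in neither comparison. Of 10 macrophage markers, 5 were higher in Tcf1 cells than in control cells, namely Adgre1 (4.76), Mrc1 (2.27), C1qb (2.24), Cd68 (1.60) and Cd14 (0.85). Of these, Adgre1, C1qb and Mrc1 were also higher than in LMPPs, Mrc1 with an adjusted p near the threshold (0.0457, limma). The list means were 7.81 and 8.04 in Tcf1 cells, 6.52 in control cells and 6.94 in LMPPs. Adgre1, which encodes F4/80, read 11.10 and 11.43 in Tcf1 cells, 6.51 in control cells and 6.89 in LMPPs, while Marco read 6.86 and 6.82 in Tcf1 cells, 6.81 in control cells and 6.99 in LMPPs and passed in neither comparison.

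Of 12 stromal markers, Bgn and Fn1 were higher in both comparisons and Pdgfrb was lower than in control cells. List means were 7.05 and 7.31 in Tcf1 cells, 6.93 in control cells and 6.74 in LMPPs. Fn1 read 8.14 and 9.14 on the Tcf1 arrays. Its adjusted p of 0.0463 against control cells and 0.0475 against LMPPs (limma) lie near the threshold, where calls are uncertain. Over the 12, the median difference was 0.20 against LMPPs (-0.61 to 2.25) and 0.13 against control cells (-1.63 to 1.80). The collagen genes Col1a1, Col1a2 and Col3a1 differed by at most 0.22 in either comparison. Sparc and Cxcl12 read higher than LMPPs by 0.58 and 0.47 without passing. Of 6 B lineage markers, Cd79b was lower in Tcf1 cells in both comparisons and none was higher, with list means of 6.74 on both Tcf1 arrays, 7.05 in control cells and 7.26 in LMPPs. Of 9 mast cell, erythroid and megakaryocyte markers, Mcpt8 and Car2 were lower in Tcf1 cells than in control cells and none was higher. The adjusted p of Car2 there lay near the threshold (0.0452, limma). Against LMPPs, Cpa3, a mast cell protease gene, was higher in Tcf1 cells (2.36, adjusted p = 0.00142, limma), and Mcpt8 (-2.31), Car1 (-1.74) and Car2 (-3.64) were lower. Their list means were 7.11 and 7.23 in Tcf1 cells, 7.58 in control cells and 7.76 in LMPPs. Whether cells of these types were present, and any part they had in the Hoxa and Meis1 differences, was not tested.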

How the data were processed

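RNA was amplified by the Ambion WT Expression system and labelled by the Affymetrix WT Terminal Labeling chemistry (per the labels), with 1 array for each of 4 samples. The submitters' processing notes name RMA and Partek 6.5 without parameters. What the authors deposited is a log2 signal for each probe set; the log base is inferred from RMA and the range of values. Of the genome build, nothing is stated in the sources used here. RMA usually sets the probe signals of all arrays to one distribution, and a shift of all RNA would then not be seen. Gene signals here still differed in spread. Their interquartile range was 2.91 on Tcf1 replicate 1, 3.13 on Tcf1 replicate 2, 3.21 on the control array and 3.22 on the LMPP array.

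Of 35399 probe sets, 21789 carried 1 gene symbol, and the probe set with the highest mean was used for each of 19938 genes. Entrez numbers matched RefSeq for 21698 probe sets and renamed 0. No filter on dim genes was applied. A model of group means was fitted by limma 3.58.1 (R 4.3.3), its variances moderated by empirical Bayes (prior SD 0.141, 6.78 degrees of freedom in all), with Benjamini-Hochberg adjustment over all genes. On simulated data of this design, 4-fold changes were nearly all recovered and 2-fold changes with a share that varied widely between draws. The simulation changed fewer genes than were called here, in the Tcf1 arrays alone, and gave each gene the same spread on every array. Its shares may therefore differ from those of the real data. In most draws the share of false calls was above the threshold of 0.05. The counts of genes that passed, over all genes and in the lists, may thus hold a larger false share than 0.05. Calls with an adjusted p near the threshold, that of Hoxa10 among them, are uncertain. Control cells against LMPPs had no test, and a 2-fold minimum was used. The p-values measure only the spread of the Tcf1 pair. Tcf7 was not analysed here.

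The 5 genes, the lists of other genes (178 of 186 entries measured) and the tests were chosen with earlier results of these data known. Named from each list are all genes past the test where at most 4 were, otherwise the 4 with the largest absolute difference, and the largest 2 where none passed. Other list genes named beside them were chosen after their values were seen. Other settings tried were averaged probe sets, renewed quantile normalization, median centring, filters on dim genes, an intensity trend, all probe sets, and each Tcf1 replicate alone.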

Additional observations from a re-analysis of the deposited data

How the results depend on the processing

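Against control cells, the 5 genes stayed past the test under averaged probe sets, renewed quantile normalization, median centring, both filters on dim genes where they were kept (Hoxa10 lies below the median gene) and an intensity trend. They did not pass over all 35399 probe sets, where the differences were the same (Hoxa5 1.81, Hoxa7 1.72, Hoxa9 3.49, Hoxa10 1.10, Meis1 3.29) and the adjusted p were 0.175, 0.166, 0.127, 0.324 and 0.127 (limma). With 1 Tcf1 replicate alone, which leaves no test, the differences from control cells ran from 1.70 to 1.91 (Hoxa5), 1.68 to 1.76 (Hoxa7), 3.47 to 3.51 (Hoxa9), 0.89 to 1.31 (Hoxa10) and 3.18 to 3.39 (Meis1), and from LMPPs from 0.45 to 0.87 for Hoxa10. Against LMPPs no setting brought any of the 5 genes past the test or turned a direction (lowest adjusted p = 0.0538, Meis1). Against LMPPs the count of 610 genes became 1456 after median centring, 1196 and 1189 over genes above the 25th percentile and the median, 936 with an intensity trend, and 0 over all probe sets (3317 at an unadjusted p under 0.05, limma). Against control cells the count of 874 became 1646 after centring, 1437 over genes above the 25th percentile and 0 over all probe sets (3702 at an unadjusted p under 0.05, limma). Between control cells and LMPPs, 1102 genes were 2-fold apart, or 1709 of all probe sets, and no value of the 5 genes turned direction. No paired analysis was possible because LMPPs and control cells have 1 array each. The number of arrays limits every comparison.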
